A study of Homo sapiens with 12 samples.

Results

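Antibody transcripts were followed across 12 arrays of myeloma cell RNA through 6 genes: IGKC, IGHA1, IGHM, IGHD, JCHAIN and MZB1. They were chosen by name with earlier values from these arrays known, above all the levels of IGKC and IGHA1 on the JJN3 arrays. Of the 6 genes, 5 had at least 1 probe set annotated to that symbol alone and all 5 were among the 15173 genes tested, of 18239 genes with such a probe set. These 5 genes had 15 probe sets: 6 for IGKC, 3 each for IGHA1 and IGHM, 2 for JCHAIN and 1 for MZB1. IGHD was annotated only on 3 probe sets that carry several symbols and was given no value. In all, 29 probe sets listed a member among several symbols.

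The study asked whether CPI203, an inhibitor of BET bromodomain proteins, improves the activity of lenalidomide in multiple myeloma, a malignancy of plasma cells. Cells labelled ARP1, JJN3 or RPMI-8226, which are 3 human myeloma lines, each gave 1 array for each of 4 treatments at 6 h. Control cells are called Control. CPI203 cells received CPI203 at 0.01 µM. LenDex cells received lenalidomide at 5 µM with dexamethasone at 0.05 µM, and Combo cells received all 3 drugs at those doses. Lenalidomide turns the cereblon ligase on the lymphoid factors Ikaros and Aiolos, and dexamethasone activates the glucocorticoid receptor; because they were always given together, their effects cannot be told apart here. The labels describe each line as a myeloma line and give no further detail of the cultures.

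An antibody is built from heavy chains, made here from the IGHA1 (IgA), IGHM (IgM) or IGHD (IgD) constant genes, and from light chains, of which IGKC encodes the kappa constant part. JCHAIN encodes the joining chain that links IgA and IgM units into larger forms, and MZB1 is a chaperone of the endoplasmic reticulum that helps heavy chains fold and be secreted. Mature B cells carry IgM and IgD on their surface, whereas plasma cells switch to high output of 1 class with 1 light chain. JJN3 is known as an IgA kappa line and RPMI-8226 as a lambda light chain line.

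Of the 6 genes, 2 matched the RefSeq table of upstream sequences used (GRCh38.p14): JCHAIN and MZB1. Both are shown because, of these assembly genes, JCHAIN differed widely between the lines while MZB1 was high in all of them. Each run gives the 250 bases before the start of the gene, 5′ to 3′ on its own strand. JCHAIN lies on the minus strand, and its run covers chr4:70666509-70666758. MZB1 lies on the minus strand too, and its run covers chr5:139389914-139390163. Capitals mark a motif match.
JCHAIN: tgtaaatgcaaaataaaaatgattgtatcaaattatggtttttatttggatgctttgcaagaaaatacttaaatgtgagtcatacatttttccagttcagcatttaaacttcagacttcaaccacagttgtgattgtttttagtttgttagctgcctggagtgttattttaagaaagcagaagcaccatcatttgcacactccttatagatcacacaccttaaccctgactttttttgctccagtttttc
MZB1: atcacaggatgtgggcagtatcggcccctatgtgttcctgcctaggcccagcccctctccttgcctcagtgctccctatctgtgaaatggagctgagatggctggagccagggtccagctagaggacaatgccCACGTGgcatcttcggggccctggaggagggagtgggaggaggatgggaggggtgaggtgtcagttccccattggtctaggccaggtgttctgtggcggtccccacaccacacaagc

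Both strands of each run were searched for 3 motifs: the octamer of antibody gene promoters (ATGCAAAT), an Ikaros core (TGGGAA) and the E-box read by MYC and its partners (CACGTG). The MZB1 run held 1 E-box, from 117 to 112 bases before the start, and no octamer or Ikaros core. In the JCHAIN run none of the 3 motifs occurred. Among all 35116 runs of the same length, 6.34% held the E-box, 20.8% the Ikaros core and 1.63% the octamer. A match describes letters and is not a measured binding site.

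Values are log2 probe set levels as deposited, so a difference of 1 is a doubling on the linear scale. Array medians lay between 5.304 and 5.375, and most probe sets sat near that level, which is close to the lowest signal these arrays report. For each gene the probe set with the highest mean was used, and levels of different genes are not set against each other. The JJN3 and RPMI-8226 arrays went against their labels in the medians of lineage gene lists. For 10 plasma cell markers the array median was 11.13 to 11.55 in ARP1, but only 6.99 to 7.85 in JJN3 and, among the RPMI-8226 arrays, 6.73 to 8.53. For 9 B cell markers it was 5.22 to 5.54, 7.26 to 8.78 and 7.24 to 9.43 in that order. The defining plasma cell marker SDC1 stood at 12.03 ± 0.25 (SD, n = 4) on the ARP1 arrays and at 5.38 ± 0.28 (SD, n = 4) and 5.19 ± 0.18 (SD, n = 4) on the others. Not every marker split the labels in this way. Plasma cell marker IRF4 averaged 12.05, 12.71 and 12.95 for ARP1, JJN3 and RPMI-8226, POU2AF1 9.44, 9.17 and 8.57, and SLAMF7 9.11, 8.57 and 7.45. PAX5, a B cell marker, averaged 7.13, 7.01 and 7.14. Line names below are therefore the labels of the arrays. In RNA from whole cultures, fewer cells with a transcript and less of it per cell cannot be told apart.

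The antibody genes split the ARP1 arrays from the rest. IGKC was at 13.68, 13.62, 13.54 and 13.65 on the ARP1 arrays under Control, CPI203, LenDex and Combo. On the RPMI-8226 arrays it was at 5.14, 5.35, 4.82 and 5.74, around the array median. On the JJN3 arrays it was at 9.32 under Control and at 5.35, 5.11 and 5.55 under the drugs. The kappa constant transcript was thus high on every ARP1 array, near the array median on every RPMI-8226 array, and intermediate on a single JJN3 array.

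IGHA1, the IgA heavy chain gene, followed the same order. It stood at 14.02, 13.89, 13.95 and 14.02 on the ARP1 arrays and at 5.42, 5.39, 5.296 and 6.08 on the RPMI-8226 arrays. The JJN3 arrays gave 9.84 under Control and 5.72, 5.52 and 6.24 under CPI203, LenDex and Combo. JJN3 arrays other than Control overlapped those of RPMI-8226 in both IGKC and IGHA1.

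JCHAIN separated all 3 labels. It was at 13.34, 13.26, 13.05 and 12.98 on the ARP1 arrays. The JJN3 arrays gave 9.63 under Control and 7.71, 7.80 and 7.46 under the drugs, and the RPMI-8226 arrays 5.43, 5.04, 5.01 and 4.85. Without its Control array the JJN3 mean of 7.66 ± 0.17 (SD, n = 3) was 2.57 above the RPMI-8226 mean of 5.08 ± 0.25 (SD, n = 4) and 5.50 below the ARP1 mean of 13.16 ± 0.17 (SD, n = 4).

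MZB1 was high on all arrays and differed least between labels. Its ARP1 levels were 11.88, 11.92, 11.97 and 12.004. JJN3 gave 10.61, 10.48, 10.55 and 10.46, and RPMI-8226 gave 10.45, 10.13, 10.14 and 10.38. The ARP1 mean was 1.67 above the RPMI-8226 mean, while the lowest JJN3 and the highest RPMI-8226 array lay almost together at 10.46 and 10.45.

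IGHM, the IgM heavy chain gene, ran the opposite way. The ARP1 arrays gave 6.15, 5.42, 5.58 and 6.21, the JJN3 arrays 8.93, 8.04, 8.69 and 8.58, and the RPMI-8226 arrays 9.90, 9.34, 9.62 and 9.02. Its RPMI-8226 mean of 9.47 ± 0.38 (SD, n = 4) was 3.63 above the ARP1 mean of 5.84 ± 0.40 (SD, n = 4). CD79A, the receptor partner of surface IgM, named here after its values were seen, stood at 5.76, 11.49 and 10.96 on average for ARP1, JJN3 and RPMI-8226.

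**Figure D1:**
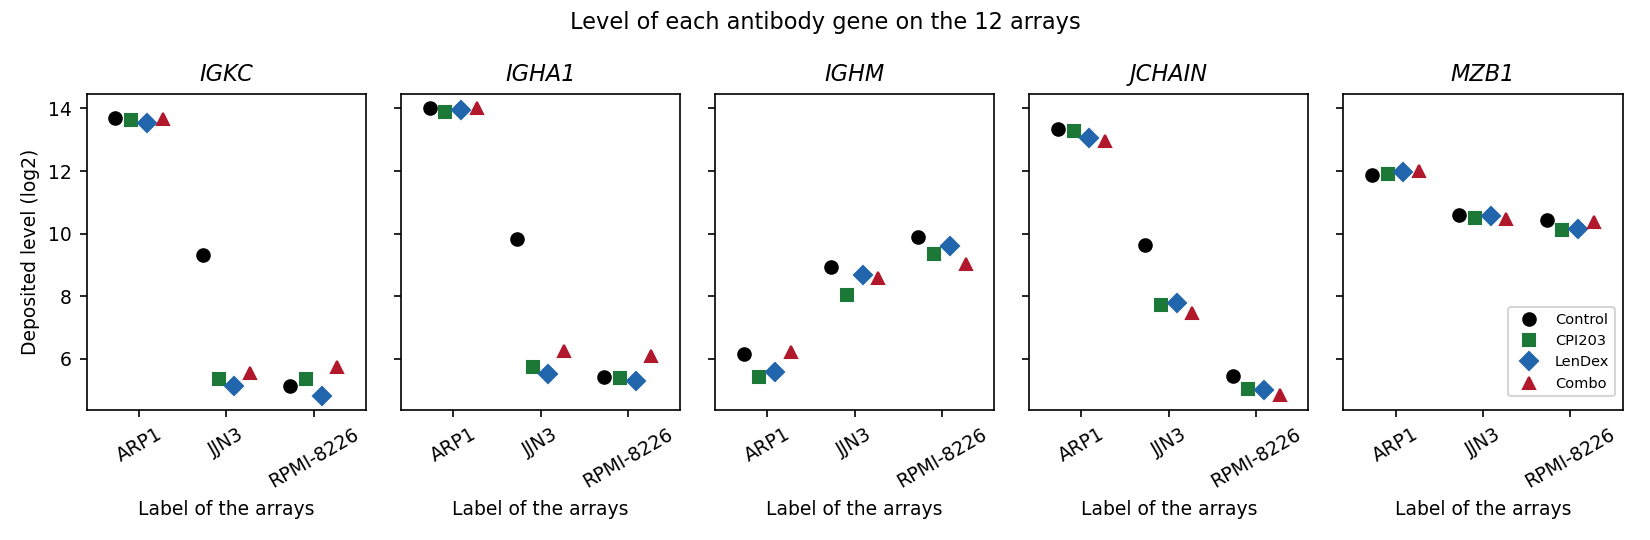
Deposited log2 level (vertical axis) of the 5 antibody genes with a probe set of their own, by label of the array (horizontal axis); each point is 1 array and its shape and colour give the treatment. IGKC, IGHA1 and JCHAIN are high on the ARP1 arrays, IGHM is high on the other arrays, and the JJN3 Control array stands apart from the other JJN3 arrays in IGKC at 9.32 and IGHA1 at 9.84.

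Of the 5 members, 4 were higher on every ARP1 array than on every other array (all but IGHM), a pattern held by 15.7% of all genes tested. IGHM alone was lower on every ARP1 array, as were 15.2% of genes. JCHAIN and MZB1 were higher on every JJN3 array than on every RPMI-8226 array, against 8.21% of genes, and IGHM was higher on every RPMI-8226 array, against 6.81%. The 4 arrays of a label are treatments of 1 line and the levels were known when the members were chosen, so these orders are given without a test.

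Genes with a like profile over the 12 arrays were ranked by Pearson r, as a description over arrays that share 3 lines. Closest to IGKC among genes outside the 6 were FCHO2 (r = 0.987), MYBPC2 (0.982), MAF (0.981), NEK3 (0.977) and CTSB (0.977). IGHA1 had r = 0.999 with IGKC, MZB1 0.968, JCHAIN 0.955 and IGHM -0.919. The genes closest to JCHAIN were EMC10 (0.995), FUCA2 (0.991), RHOBTB3 (0.990), MYADM (0.989) and CAPN2 (0.989), which share its step from ARP1 over JJN3 to RPMI-8226. EMC10 averaged 11.995, 7.56 and 5.11 on the arrays of these labels.

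The JJN3 Control array held higher levels of 3 antibody transcripts than the other JJN3 arrays. IGHA1 was 4.02 above the mean of the other 3 JJN3 arrays, IGKC 3.98 above it and JCHAIN 1.98 above it (3.93-fold). Those 3 arrays had SDs of 0.37, 0.22 and 0.17. Because they averaged 5.83 in IGHA1 and 5.34 in IGKC, near the lowest signal, the measured differences of these genes may understate the true ones, and no fold is given for them. IGHM was 0.50 above and MZB1 0.11 above. Ranked by the Control value minus the highest of the other 3 JJN3 arrays, IGKC at 3.77, IGHA1 at 3.61 and JCHAIN at 1.83 took places 1, 2 and 3 of 15173 genes. A gap of at least 1 was seen for these 3 members and for 0.125% of all genes, and any gap above 0 for all 5 members and 26.9% of genes. The members were picked on this contrast, which rests on 1 array a treatment, so nothing is read from these places.

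Probe sets of 1 gene did not all show the difference. For IGHA1 the other probe sets were 4.68 and 1.06 above the mean of the other 3 arrays, and the second JCHAIN probe set was 1.53 above it. The 3 IGHM probe sets lay between 0.34 and 0.50. The remaining 5 IGKC probe sets differed by -0.38 to 0.05, and none of them exceeded 5.62 on any array, including the ARP1 arrays on which the first reached 13.68. Averaged over all 6 probe sets, the IGKC difference was 0.58. Among the 29 probe sets that list a member with further symbols, 4 were at least 1 higher on the JJN3 Control array, with a largest difference of 3.71.

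**Figure D2:**
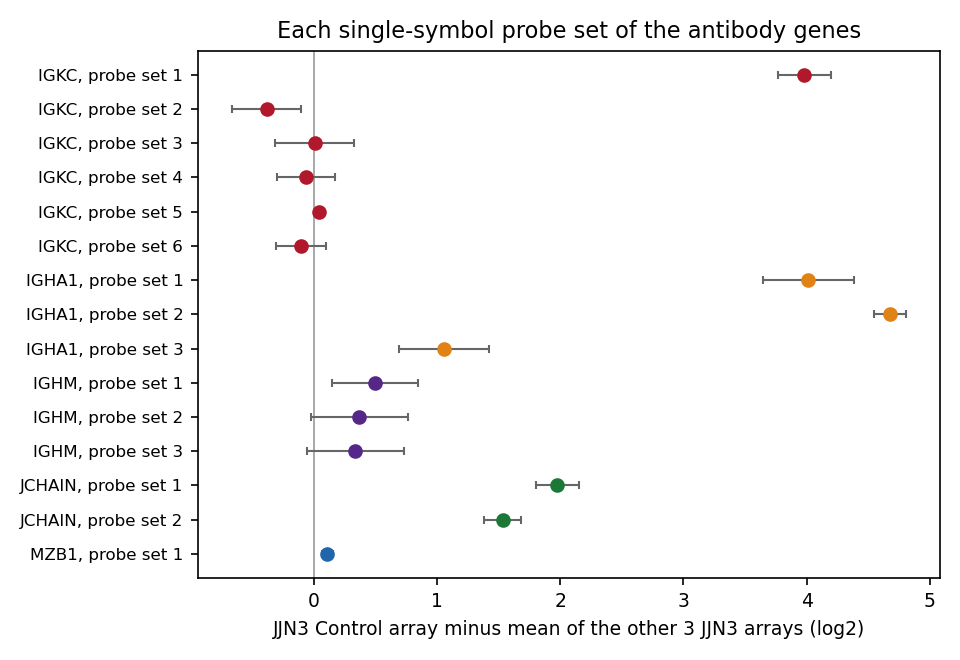
JJN3 Control array minus the mean of the other 3 JJN3 arrays, in log2 units (horizontal axis), for the 15 probe sets annotated to 1 member each (vertical axis, numbered within a gene by falling mean level); bars are the SD of the other 3 arrays. All 3 IGHA1 and both JCHAIN probe sets lie at 1.06 or more, and 1 of 6 IGKC probe sets does.

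Other genes also stood higher on that array than on the other JJN3 arrays. The 10 largest gaps outside the members belonged to VCAM1 (1.76), IL15RA (1.65), DOK3 (1.32), FCAMR (1.31), WNT10A (1.28), KRTAP26-1 (1.19), CXCL8 (1.19), CTSB (1.18), FCRL2 (1.16) and PLEKHG1 (1.13). Of these 10, 7 were also highest on the Control array among the RPMI-8226 arrays. IL15RA, PLEKHG1 and FCRL2, 3 of the 7, were so by at least 1, and CXCL8 by only 0.10. FCAMR, KRTAP26-1 and CTSB were not highest there, at -0.22, -0.47 and -0.55 from the highest of the other RPMI-8226 arrays. The share of all genes highest on the RPMI-8226 Control array was not counted, so the 7 are a description. VCAM1 was at 9.07 on the RPMI-8226 Control array against a mean of 7.16 on the other RPMI-8226 arrays. FCAMR encodes a receptor for IgA and IgM and was at 7.20 on the JJN3 Control array against 5.68 ± 0.21 (SD, n = 3) on the other JJN3 arrays. CTSB, a lysosomal protease gene, is the one of the 10 with a high ARP1 level, 12.78 on average against 8.17 on the JJN3 Control array and 6.78 on the other 3.

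Levels of genes high on the ARP1 arrays are given beside these values. Outside the members, 38 genes averaged at least 10 on the ARP1 arrays and at most 6 on the RPMI-8226 arrays and on the other 3 JJN3 arrays. Their median difference between the JJN3 Control array and the mean of the other 3 was 0.30, ranging from -0.21 to 1.20. The difference was above 0 for 34 of them. Over all 15173 genes the median was -0.02 and 47.2% lay above 0. The 38 genes were picked for a low mean on those same 3 arrays, which favours a difference above 0. All genes were not picked in this way, so nothing is read from the contrast. MYBPC2 (1.20), MAF (0.97), TMT1A (0.76) and PRDM1 (0.72) led the 38 genes. SDC1 was 0.54 higher. On the ARP1 Control array IGKC was 4.36 above its level on the JJN3 Control array, IGHA1 4.17 and JCHAIN 3.70. The 38 genes stood between 4.91 (GNG7) and 6.65 (MYBPC2) on the JJN3 Control array, many of them near the array median, so their gap to ARP1 is limited by the lowest signal and is not set beside these values. Any part of RNA from other cells or of a mixed sample in the JJN3 Control values was not tested.

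Marker lists gave further values for that array. The median of 10 plasma cell markers was 7.67 against 6.99 to 7.85 on the other 3 JJN3 arrays, with 5 of the 10 higher than on all 3. Among the 5, SDC1 and PRDM1 were near the array median, at 5.79 and 5.97. Over all genes tested 26.9% were higher than on all 3, the share to set beside this count and those below. Nothing is read from these counts in short lists. The B cell median was 7.87 against 7.26 to 8.78, with 4 of 9 higher than on all 3. That of 10 erythroid markers was 6.51 against 5.71 to 6.56, with 4 of the 10 higher than on all 3. Levels within the erythroid list were unlike. On the JJN3 Control array HBG1 was at 13.30, HBE1 at 11.77 and HBZ at 9.94, but HBB at 5.56 and ALAS2 at 5.34. On the other 3 JJN3 arrays HBG1 was at 13.19 to 13.32, HBE1 at 11.84 to 11.99 and HBZ at 9.51 to 9.94. High values were not confined to JJN3. HBG1, HBE1 and HBZ averaged 12.31, 6.57 and 9.72 on the ARP1 arrays and 7.66, 10.33 and 4.97 on the RPMI-8226 arrays. The medians of 5 T cell markers (4.94) and of 6 monocyte and macrophage markers (5.17) were near the array median, and none of either list exceeded all 3 other arrays. One T cell marker, CD3D, did not follow its list and was at 7.59 on the JJN3 Control array and 7.33 to 7.68 on the other JJN3 arrays. Across tested genes the JJN3 Control array correlated with the other JJN3 arrays at Pearson r from 0.980 to 0.987 and with the ARP1 arrays from 0.880 to 0.887, against 0.876 to 0.887 for the other JJN3 arrays with ARP1; genes are not independent replicates.

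**Figure D3:**
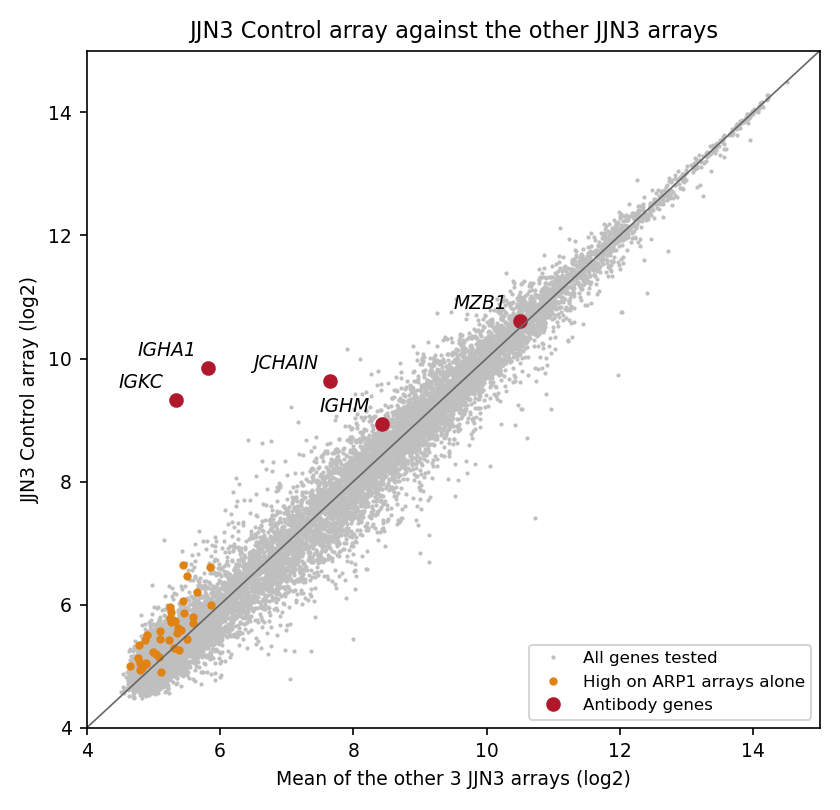
Log2 level on the JJN3 Control array (vertical axis) against the mean of the other 3 JJN3 arrays (horizontal axis) for the 15173 genes tested, with a line of equal values; large points are the 5 members, mid-sized points the 38 other genes high on the ARP1 arrays alone. IGKC, IGHA1 and JCHAIN lie 3.98, 4.02 and 1.98 above equality, and the 38 genes lie -0.21 to 1.20 from it.

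Drug effects on the members were tested without the JJN3 Control array, since the members had been picked on its values. The remaining 11 arrays were fitted in limma with line and treatment as terms. With line as a term, level differences between lines were removed. Each p-value therefore sets a treatment effect against its disagreement between lines, pooled over treatments and moderated across genes, with 1 array per line and treatment. The effect of CPI203 was taken over both levels of LenDex, the effect of LenDex over both levels of CPI203, and Combo was set against Control. None of the 5 members passed an adjusted p of 0.05 in any of these 3 comparisons. At an unadjusted p under 0.05 there were 2 members for CPI203 (IGKC and JCHAIN), 1 for LenDex and 1 for Combo (JCHAIN in both). Over all genes tested, 20.5%, 17% and 19.7% reached that level in the 3 comparisons, so these counts of 5 members are near the background. After adjustment, 0.778% of all genes passed for CPI203 (42 higher, 76 lower), 1.56% for LenDex (85 higher, 152 lower) and 1.98% for Combo (71 higher, 229 lower). Without the ARP1 arrays 1707, 366 and 1105 genes passed, and without either JJN3 or RPMI-8226 0, 2 and 0. The median change of the 5 members was -0.03, -0.0040 and -0.02, and over all genes -0.0053, 0.0043 and 0.0066.

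JCHAIN was nearest to a call and, in the probe set used, was lower with drug in every line that could be compared. Its change was -0.50 ± 0.12 (SE, 95% interval -0.77 to -0.23) for Combo against Control, with adjusted p = 0.0684 in limma. Adjusted p over the alternatives ran from 0.0539 to 0.999. The 2 lines with a Control array gave -0.36 in ARP1 and -0.59 in RPMI-8226. For LenDex the change was -0.27 ± 0.08 (SE, limma adjusted p = 0.115), with -0.29, -0.25 and -0.31 in ARP1, JJN3 and RPMI-8226, and for CPI203 -0.22 ± 0.08 (SE, limma adjusted p = 0.154). The 2 JCHAIN probe sets disagreed on the RPMI-8226 arrays, where levels were near the array median. LenDex minus Control there was -0.42 in the first and 0.59 in the second, and Combo minus Control -0.59 and 0.68. They differed at higher levels too. The second stood at 12.48, 12.51, 12.52 and 12.39 on the ARP1 arrays under Control, CPI203, LenDex and Combo. On the JJN3 arrays under CPI203, LenDex and Combo it stood at 6.92, 7.01 and 7.21. Combo was thus the highest of these JJN3 arrays in the second probe set and the lowest in the first. With the probe sets averaged, the LenDex value was 0.05 and the Combo value -0.11 (limma adjusted p = 0.760).

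IGHM stood at -0.38 ± 0.17 (SE, 95% interval -0.76 to 0.0073) for CPI203, with limma adjusted p = 0.253. CPI203 minus Control was -0.73 in ARP1 and -0.56 in RPMI-8226, while Combo minus LenDex, in the same lines, was 0.64 and -0.60, and -0.11 for JJN3. The ARP1 levels were near the array median, and the IGHM probe sets disagreed there. From Control to CPI203 on the ARP1 arrays, the second probe set went from 5.47 to 6.01 and the third from 5.42 to 5.24. For Combo against Control IGHM was at -0.39 (95% interval -0.97 to 0.19), with 0.07 in ARP1 and -0.88 in RPMI-8226.

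The IgA and kappa genes were not called either. On the ARP1 arrays the IGKC and IGHA1 probe sets used, which stand near 14, differed from Control by at most 0.14 and 0.12, but the third IGHA1 probe set was at 12.31, 12.45, 12.41 and 12.78 under Control, CPI203, LenDex and Combo. Over the 11 arrays the CPI203 change was 0.28 ± 0.11 (SE, 95% interval 0.03 to 0.53, limma adjusted p = 0.199) for IGKC and 0.23 ± 0.11 (SE, 95% interval -0.03 to 0.48, limma adjusted p = 0.296) for IGHA1. These values came from the JJN3 and RPMI-8226 arrays, at levels near the array median. There Combo minus LenDex was 0.44 and 0.92 for IGKC and 0.71 and 0.79 for IGHA1, against 0.12 and 0.07 in ARP1. CPI203 minus Control was 0.22 for IGKC and -0.02 for IGHA1 in RPMI-8226, and -0.06 and -0.12 in ARP1. From LenDex to Combo the second IGHA1 probe set went from 5.34 to 5.26 in JJN3 and from 5.14 to 5.46 in RPMI-8226. The third went from 5.42 to 5.45 and from 5.51 to 5.25 in these lines. With the probe sets averaged, the CPI203 change was 0.10 for IGKC and 0.12 for IGHA1. With the JJN3 Control array included the fitted CPI203 changes turned negative, and Combo minus Control became -1.07 for IGKC and -0.98 for IGHA1 (limma adjusted p = 0.444 and 0.491).

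MZB1 was at -0.03 (95% interval -0.22 to 0.16) for CPI203, 0.01 (-0.18 to 0.20) for LenDex and -0.02 (-0.31 to 0.27) for Combo, with limma adjusted p from 0.888 to 0.965. The intervals of the 5 members do not show that any of them was unaffected; they limit the size of a common effect across lines.

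**Figure D4:**
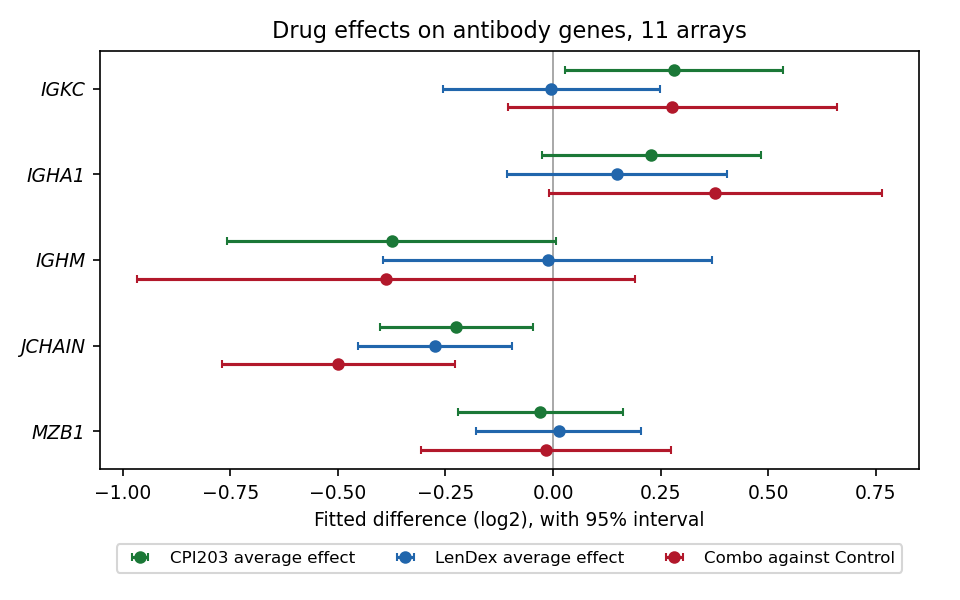
Fitted log2 difference (horizontal axis) with its 95% interval for each member (vertical axis) in the 3 comparisons, from 11 arrays without the JJN3 Control array. Intervals for JCHAIN lie below 0 before adjustment, the CPI203 interval for IGKC lies above 0, and no member passed after adjustment over 15173 genes.

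Other antibody genes with a probe set of their own were mostly near the array median, and those without were given no value. The probe sets that list a member among several symbols ran from 4.46 to 14.12 over the ARP1 arrays. Of a list of 26, 6 had a probe set of their own and 5 were tested, with none called in any comparison and median changes of -0.10, -0.12 and -0.15 for CPI203, LenDex and Combo. IGLL5, a lambda-like light chain gene whose sequence overlaps the lambda constant region so that probe signal can be shared, was the exception in level. Under Control, CPI203, LenDex and Combo its levels were 12.05, 12.09, 11.64 and 11.79 for ARP1, 9.68, 8.86, 8.82 and 8.46 for JJN3, and 10.48, 9.43, 9.24 and 8.84 for RPMI-8226. On the JJN3 and RPMI-8226 arrays Control was the highest and Combo the lowest. Its Combo change over 11 arrays was -0.97 ± 0.26 (SE, limma adjusted p = 0.0886), with -0.25 in ARP1 and -1.64 in RPMI-8226. The largest positive values were IGLL3P at 0.06 for CPI203, and IGKV1-5 at 0.10 for LenDex and 0.14 for Combo.

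Folding and assembly genes of the endoplasmic reticulum, which load, oxidise and check antibody chains, had no called member. Of 25 genes, 24 were tested, and median changes were 0.07, -0.05 and 0.04 for CPI203, LenDex and Combo; 5, 8 and 5 had an unadjusted p under 0.05, against 20.5%, 17% and 19.7% of all genes tested. DNAJC3, a co-chaperone of BiP, stood at 0.41 for CPI203 (limma adjusted p = 0.0707), against SDF2L1 at -0.21. HSPA5, which encodes BiP itself, stood at -0.30 for LenDex (limma adjusted p = 0.0965), against the oxidase gene ERO1B at 0.73. For Combo the extremes were ERO1B at 0.67 and DNAJB11 at -0.41. The list median was 11.15 to 11.28 over ARP1 arrays, 10.84 to 10.96 over JJN3 and 10.33 to 10.55 over RPMI-8226.

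Genes of translocation and transport, which carry new chains into the endoplasmic reticulum and onward, were not called either (21 of 23 tested). Their medians were -0.02, -0.04 and -0.07, with 2, 2 and 3 genes at an unadjusted p under 0.05, for which the shares over all genes were again 20.5%, 17% and 19.7%. The extremes were SEC24D at 0.15 and SRPRB at -0.36 for CPI203, SSR3 at 0.29 and SEC23B at -0.22 for LenDex, and SSR3 at 0.28 and MCFD2 at -0.50 for Combo.

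Regulators of antibody genes and receptor partners likewise had none called among 14 tested of 16, with medians of -0.07, -0.04 and -0.09 and with 5, 2 and 1 genes at an unadjusted p under 0.05 beside the same 20.5%, 17% and 19.7%. POU2AF1, the B cell coactivator that works with octamer factors on antibody promoters, was closest, at -0.89 ± 0.19 (SE, limma adjusted p = 0.0523) for Combo. Its levels were 9.99, 9.50, 9.52 and 8.75 for ARP1, 9.45, 8.97, 9.16 and 9.10 for JJN3 and 9.05, 8.56, 8.42 and 8.26 for RPMI-8226, with Control the highest in each line. IRF4 at 0.35 and CD79B at -0.49 were the extremes for CPI203, BACH2 at 0.25 and SPIB at -0.53 for LenDex, and VPREB3 at 0.27 for Combo. XBP1, the driver of secretory expansion, named after its values were seen, averaged 12.75, 10.51 and 10.47 for ARP1, JJN3 and RPMI-8226, and PRDM1 11.31, 5.43 and 5.38. Among the 10 plasma cell markers, SLAMF7, a surface receptor, fell with LenDex by 1.16 on the log2 scale (SE 0.21, limma adjusted p = 0.0395), and none was called for CPI203 or Combo.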

How the data were processed

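Probe set levels were deposited by the authors on a log2 scale, as the values show. The submitters' processing notes name RMA and Affymetrix Expression Console 1.1, and whether all arrays were normalised together is not given in the sources used here. Of 49386 probe sets, 45259 had 1 symbol in the platform annotation, and 45178 of these matched the RefSeq table used to update symbols. The members, lists and tests were chosen with earlier results of these data known. Each gene took its probe set of highest mean, and a gene entered the tests if it reached 5 on 3 or more arrays. limma 3.58.1 (R 4.3.3) fitted line and treatment to 11 arrays (5 residual degrees of freedom), and moderated the variances by empirical Bayes. Its tests were two-sided, and p-values were adjusted by Benjamini-Hochberg across these genes. The fit was checked on simulated data. Line served as a block because each number marks 1 cell line; within lines, deviations from treatment means correlated at 0.82 to 0.94. Named genes were the members, the lists' extreme values per comparison, and the 5 genes most like IGKC and JCHAIN. The 10 largest JJN3 Control gaps were named too. Outside this rule, SDC1, SLAMF7, CD3D, CD79A, XBP1, PRDM1, TMT1A and GNG7 were named after their values were seen. So were PAX5, HBG1, HBE1, HBZ, HBB and ALAS2. Alternatives were all 12 arrays, no line block, no level filter, cyclic loess, a variance trend with robust fit, averaged probe sets and leaving out each line; averaging JJN3 with RPMI-8226 arrays was added after seeing the data. The number of arrays limits the precision.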

Additional observations from a re-analysis of the deposited data

Results flagged for a closer look

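Among the 4 arrays of a line, the gap of the highest or lowest array to the next was divided by the range and set against Dixon's 95% critical value. On the JJN3 arrays the ratio was 0.897 for IGKC, 0.835 for IGHA1 and 0.846 for JCHAIN, each with the Control array highest; the members were picked on these values, so the ratios are a description and no test. In the 10 sets from ARP1 and RPMI-8226, 1 ratio passed, where chance passes about 1 in 20. It was IGHA1 on the RPMI-8226 arrays at 0.847, with the Combo array highest at 6.08, near the array median. Combo minus Control was 0.67 in that probe set but 0.04 and -0.78 in the other IGHA1 probe sets. The 4 arrays of a line differ by treatment and are not replicates.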

How the results depend on the processing

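No member was called in any of the 3 comparisons under any of the 10 alternatives, and 125 of 150 such values kept their sign. With all 12 arrays, which include the one the members were picked on, CPI203, LenDex and Combo against Control called 1105, 645 and 1388 genes, against 118, 237 and 300 without it; IGKC stood at -0.39 for CPI203 and -1.07 for Combo, and IGHA1 at -0.45, -0.53 and -0.98. Without the replicate block, 0, 1 and 1 genes were called, IGKC stood at -0.40 and -1.09 (CPI203 and Combo), IGHA1 at -0.43, -0.51 and -0.94, and for LenDex IGHM at 0.14 and MZB1 at -0.086; this fit mixes line levels into the treatments because JJN3 has no Control. A variance trend with robust fit called 891, 753 and 926 genes, and averaged probe sets 257, 503 and 543. With averaged probe sets the LenDex values were -0.065 for IGHA1, 0.011 for IGHM and 0.048 for JCHAIN, and the JJN3 Control differences 0.58 for IGKC, 3.25 for IGHA1 and 1.75 for JCHAIN. Against the highest of the other JJN3 arrays, these differences were 3.61 for IGHA1 and 0.057 for MZB1. Cyclic loess gave 0.068 for IGKC and 0.057 for IGHM (LenDex), and 0.054 for MZB1 (Combo). Averaging JJN3 (shifted to the RPMI-8226 mean over shared treatments) with RPMI-8226 arrays, chosen after seeing the data, called 0, 3 and 0 genes and put IGHM at 0.0079 for LenDex. Leaving out 1 line gave 0 to 1707, 2 to 366 and 0 to 1105 genes, with the highest counts without ARP1 and 0, 2 and 0 without JJN3 and without RPMI-8226. Across these fits MZB1 ran from -0.10 to 0.014 for CPI203, -0.066 to 0.074 for LenDex and -0.17 to 0.088 for Combo, IGKC from -0.053 to 0.051 and IGHM from -0.10 to 0.15 for LenDex. The cause of each shift was not tested. Signals near the array median limit IGKC and IGHA1 outside ARP1, JCHAIN on the RPMI-8226 arrays and IGHM on the ARP1 arrays.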
